A study of Homo sapiens with 12 samples.

Results

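The core machinery of the G1 phase of the cell cycle was followed in K-562, a cell line from a human chronic myeloid leukemia with erythroid features, by RNA sequencing of poly(A) RNA 24 hours after siRNA transfection. The 10 genes described are the kinases CDK6, CDK4 and CDK2, the D-type cyclins CCND1, CCND2 and CCND3, the E-type cyclin CCNE1, and the CDK inhibitors CDKN1A, CDKN1B and CDKN2C. These members were chosen by name and not by a threshold on their values, and each was found once among the 60658 rows of the table. The design has 4 groups of 3 libraries, and every group is K-562 under G418 selection for a stable construct. The D152V_Rescue group is a line with 3xTY-D152V, MYB carrying the substitution D152V, and received the MYB siRNA si2992. The MYB-WT_Rescue group is a line that carries 3xTY-hcM and received the same siRNA. The MYB_KnockDown group carries 3xTY1, the tag without MYB, and also received si2992, and the siRNA_Control group carries 3xTY1 and received a siGENOME non-targeting siRNA. Knockdown and control therefore share a line, whereas each rescue is a different stable line, so a difference that involves a rescue cannot be told apart from a difference between lines. A single siRNA against MYB was used, and the sources used here do not say whether a line is 1 clone or a pool.

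In G1, D-type cyclins bind CDK4 or CDK6 and phosphorylate the retinoblastoma protein, which releases E2F transcription factors. Cyclin E with CDK2 completes that phosphorylation and starts DNA replication. Inhibitors of the INK4 class, such as the product of CDKN2C, bind the D-type kinases CDK4 and CDK6, and those of the CIP/KIP class, made by CDKN1A and CDKN1B, act chiefly on CDK2 complexes. CDK6 and CCND3 are the forms known for their use in blood cells, and K-562 is known to have lost the locus of CDKN2A and CDKN2B.

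The deposited values are FPKM, fragments per kilobase of transcript, scaled to mapped fragments, which allow levels to be compared between genes per length. Summed FPKM lay between 672616 and 798362 for 11 libraries, whereas MYB_KnockDown replicate 1 summed to 1215578 and correlated least with its own group (r of 0.929 and 0.930 over tested genes, against 0.983 to 0.991 for the other pairs within a group). Ribosomal protein genes held 23.2% of the FPKM total of that library, so members' results are also given without it where leaving it out changes a call, and for CDK6, CDK4 and CDKN2C against the knockdown. Their share was 16.9% and 16.1% in MYB_KnockDown replicates 2 and 3, 12.1% to 14.3% in siRNA_Control and 10.2% to 12.5% in rescue libraries. Every knockdown library thus lay above every other library, so leaving out replicate 1 does not remove this shift. Its part in the results was not tested. All 12 erythroid and leukemic markers reached 1 FPKM in at least 3 libraries, with GATA1, an erythroid transcription factor, between 80.8 and 138.2 FPKM. They summed to 2221 to 3779 FPKM in D152V_Rescue, 996 to 2038 FPKM in MYB-WT_Rescue, 1790 to 5928 FPKM in MYB_KnockDown and 1385 to 2892 FPKM in siRNA_Control libraries, and the rescues did not overlap each other. HBE1, an embryonic globin gene, ran from 43.1 to 3299.8 FPKM over the 12 libraries and TFRC, the transferrin receptor gene, from 56.1 to 384 FPKM. Among markers of other cell types, MS4A1, ELANE and CDH5 were at 0 in every library and MPO did not exceed 0.0727 FPKM. Others were present in all 12 libraries: KRT8 and EPCAM, epithelial genes, ran from 182 to 1516 FPKM and from 32.1 to 125.7 FPKM. CD3D ran from 16.0 to 109.6 FPKM and LYZ from 3.42 to 27.5 FPKM. The 6 fibroblast and epithelial markers, 4 of which reached 1 FPKM in at least 3 libraries, summed to 215 to 286 FPKM in D152V_Rescue, 251 to 295 FPKM in MYB-WT_Rescue, 409 to 1645 FPKM in MYB_KnockDown and 325 to 370.5 FPKM in siRNA_Control libraries. The 5 T and B cell markers reported, of which CD3D did so, summed to 77.4 to 110.1 FPKM in D152V_Rescue, 34.2 to 59.4 FPKM in MYB-WT_Rescue, 16.1 to 74.1 FPKM in MYB_KnockDown and 17.3 to 23.8 FPKM in siRNA_Control libraries. The 6 monocyte and granulocyte markers, of which LYZ did so, summed to 3.73 to 5.18 FPKM in D152V_Rescue, 10.9 to 14.1 FPKM in MYB-WT_Rescue, 8.32 to 27.9 FPKM in MYB_KnockDown and 15.8 to 24.5 FPKM in siRNA_Control libraries. Neither of 2 endothelial markers exceeded 0.0125 FPKM, and PECAM1, also on that list, was not found by its symbol. The part of these markers in the results was not tested. In bulk RNA, fewer cells in a cell cycle phase and less RNA per cell cannot be told apart.

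MYB, the transcription factor targeted by the siRNA (ENSG00000118513; GRCh38 chr6:135181308-135219172), was measured at 86.6, 86.2 and 100.4 FPKM in D152V_Rescue and 132.5, 125.0 and 114.8 FPKM in MYB-WT_Rescue libraries. MYB_KnockDown libraries held 26.1, 32.9 and 31.5 FPKM, against 124.0, 131.9 and 104.3 FPKM in siRNA_Control libraries. All 3 knockdown libraries lay below every other library, and the mean fell to 25.1% of control (log2 change of FPKM + 1 of -1.96, limma adjusted p = 3.03e-05, where limma fits all tested genes and the threshold is 0.05). MYB in D152V_Rescue averaged 75.8% of control without overlap but did not pass (log2 change -0.39, limma adjusted p = 0.0943). That difference passed without MYB_KnockDown replicate 1 (limma adjusted p = 0.0120) and in a fit of only the 6 libraries compared (0.0262). In MYB-WT_Rescue it averaged 103.4% of control and overlapped it (log2 change 0.05, limma adjusted p = 0.877). The table does not tell introduced MYB RNA from endogenous MYB RNA.

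The members that passed the test between the wild-type rescue and the knockdown were CDK6, CDK4 and CDKN2C, and the sequences upstream of their RefSeq starts are shown because the results turn on these genes. Each line gives the 250 bases before the gene start, 5′ to 3′ on the gene's strand, from RefSeq on GRCh38.p14, with matches to AACNG, the core of the MYB recognition sequence (either strand), and to CACGTG, the E-box bound by MYC with MAX, in capitals. The windows are chr7:92836574-92836823 (minus strand) for CDK6, chr12:57752311-57752560 (minus strand) for CDK4 and chr1:50960495-50960744 (plus strand) for CDKN2C.
CDK6: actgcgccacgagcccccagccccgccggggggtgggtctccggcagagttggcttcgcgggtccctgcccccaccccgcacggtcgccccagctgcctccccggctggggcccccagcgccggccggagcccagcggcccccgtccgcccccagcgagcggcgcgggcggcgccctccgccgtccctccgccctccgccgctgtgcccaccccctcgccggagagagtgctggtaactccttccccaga
CDK4: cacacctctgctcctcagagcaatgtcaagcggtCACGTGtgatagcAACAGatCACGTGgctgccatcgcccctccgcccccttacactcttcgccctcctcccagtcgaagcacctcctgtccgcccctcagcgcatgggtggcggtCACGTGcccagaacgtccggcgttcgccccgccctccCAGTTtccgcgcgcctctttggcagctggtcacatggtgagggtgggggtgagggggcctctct
CDKN2C: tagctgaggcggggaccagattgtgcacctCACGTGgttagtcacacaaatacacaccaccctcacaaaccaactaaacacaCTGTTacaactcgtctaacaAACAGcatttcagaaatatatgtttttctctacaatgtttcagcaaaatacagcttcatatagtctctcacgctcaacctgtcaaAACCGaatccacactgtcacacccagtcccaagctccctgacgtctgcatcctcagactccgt
RefSeq gave 2 windows for CDK6, 1 for CDK4 and 3 for CDKN2C, and only the window at the gene's own start is described for each. The CDK6 window, which overlaps CDK6-AS1, held neither motif. The CDK4 window held 3 E-boxes, whose first bases lie 216, 196 and 101 bases before the start, and 2 MYB cores, 203 and 64 bases before it. The CDKN2C window held 1 E-box and 3 MYB cores. For 7 members RefSeq gave an entry, 5 of them at the gene's own start, and CCNE1 and CDKN1B held 1 and 2 MYB cores. Of 35116 windows of this length in the table, several of them alternative starts of 1 gene, 70.6% held at least 1 AACNG, 16.5% held 3 or more AACNG, 6.34% held a CACGTG and 0.0797% held 3 or more CACGTG. No match of one motif overlaps a match of the other in these windows. A match describes letters only.

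**Figure D1:**
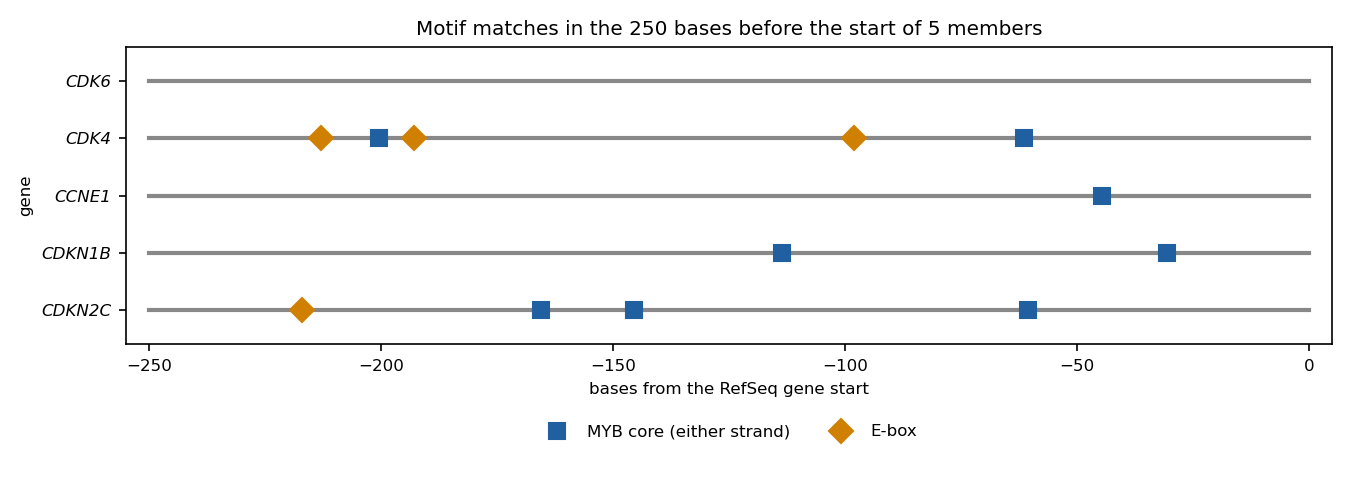
Positions of AACNG (blue squares, either strand) and CACGTG (orange diamonds) in the 250 bases before the RefSeq start of 5 members, with the distance from the start in bases on the x axis and 1 line per gene. CDK4 holds 3 E-boxes, CDKN2C holds 1 and the other 3 windows hold none.

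Among the kinases CDK6, which pairs with D-type cyclins (ENSG00000105810; GRCh38 chr7:92604921-92836573), passed in 5 of the 6 comparisons. It was measured at 27.7, 28.6 and 25.7 FPKM in D152V_Rescue and 44.0, 42.4 and 41.5 FPKM in MYB-WT_Rescue libraries. MYB_KnockDown libraries held 15.4, 20.1 and 19.2 FPKM, against 32.2, 32.8 and 27.9 FPKM in siRNA_Control libraries. Every knockdown library was below every other library, every wild-type rescue library was above every other, and D152V rescue and control libraries overlapped. CDK6 averaged 18.2 ± 2.50 FPKM in the knockdown and 31.0 ± 2.65 FPKM in control libraries (SD, n = 3 each), 58.9% of control, and fell by 0.74 on the log2(FPKM + 1) scale (SE 0.12, limma adjusted p = 0.00713). The call was lost only in a fit of the 6 libraries compared (adjusted p = 0.140), where 16 genes in all were called, and the log2 change was -0.63 without MYB_KnockDown replicate 1 (adjusted p = 0.00115). It rose in the wild-type rescue to 42.6 ± 1.30 FPKM, 2.34 times the knockdown level (log2 change 1.19, SE 0.12, limma adjusted p = 8.00e-05), and this call held in all 20 other settings. In the D152V rescue it rose to 27.3 ± 1.48 FPKM, 149.9% of the knockdown level (log2 change 0.57, limma adjusted p = 0.00812, and 0.0925 in the fit of 6 libraries). These log2 changes were 0.46 in D152V_Rescue and 1.08 in MYB-WT_Rescue without MYB_KnockDown replicate 1.

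CDK6 also separated the 2 rescue lines. It was lower in D152V_Rescue than in MYB-WT_Rescue, at 64.1% of its level there (log2 change -0.62, SE 0.12, limma adjusted p = 0.00560), and the adjusted p stayed between 1.56e-04 and 0.0280 over 20 other settings. MYB itself stood at 73.4% in the same comparison (log2 change -0.44, limma adjusted p = 0.0494), which 18 of 20 alternatives ended, at up to 0.164. From highest to lowest the groups ran wild-type rescue, control, D152V rescue and knockdown. Of the neighbours in that order, D152V rescue and control did not differ beyond their spread (log2 change -0.17, 95% interval -0.44 to 0.09, limma adjusted p = 0.476). Wild-type rescue was above control (log2 change 0.45, limma adjusted p = 0.0366), with no overlap between the 2 groups. That call was lost when any 1 library of siRNA_Control, MYB-WT_Rescue or D152V_Rescue was left out: the adjusted p was 0.0898, 0.0773 and 0.153 without control replicates 1, 2 and 3, 0.114, 0.104 and 0.0846 without wild-type rescue replicates 1, 2 and 3, and 0.0585, 0.0594 and 0.05004 without D152V rescue replicates 1, 2 and 3.

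CDK4, the other kinase of D-type cyclins (ENSG00000135446; GRCh38 chr12:57747727-57752310), rose in the knockdown, where CDK6 fell, and fell against the knockdown in both rescues, where CDK6 rose. Its values were 71.8, 76.6 and 76.8 FPKM in D152V_Rescue and 64.5, 64.4 and 64.0 FPKM in MYB-WT_Rescue libraries. They were 156.6, 113.3 and 111.9 FPKM in MYB_KnockDown libraries, against 81.4, 86.4 and 98.8 FPKM in siRNA_Control libraries. No rescue library reached the lowest control library, and no control library reached the lowest knockdown library. The mean was 127.3 ± 25.4 FPKM in the knockdown and 88.9 ± 8.96 FPKM in control libraries, 1.43 times the control (log2 change 0.50, SE 0.14, limma adjusted p = 0.0400). Without MYB_KnockDown replicate 1, the highest library, the log2 change was 0.34 and the adjusted p 0.0141. The call was lost without any 1 control library (adjusted p = 0.150, 0.131 and 0.0627 without replicates 1, 2 and 3), without any 1 rescue library (0.0583 to 0.0646), with no filter on low values (0.0687) and in the fit of 6 libraries (0.221). It was also lost in a fit with a block for the replicate number (0.0521). Against the knockdown, CDK4 fell in the wild-type rescue to 64.3 ± 0.251 FPKM, 50.5% of the knockdown level (log2 change -0.96, SE 0.14, limma adjusted p = 5.78e-04, under 0.05 in all 20 other settings). It fell in the D152V rescue to 75.1 ± 2.85 FPKM, 59.0% of the knockdown level (log2 change -0.74, limma adjusted p = 0.00436, and 0.0697 in the fit of 6 libraries). Leaving out MYB_KnockDown replicate 1 gave log2 changes of -0.58 in D152V_Rescue and -0.80 in MYB-WT_Rescue.

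Between the rescues and the control CDK4 did not pass. The log2 change was -0.24 in D152V_Rescue (limma adjusted p = 0.365) and -0.46 in MYB-WT_Rescue (limma adjusted p = 0.0604), although neither rescue overlapped the control. Without MYB_KnockDown replicate 1, whose group shares the estimate of spread, both passed (adjusted p = 0.0333 for D152V_Rescue and 0.00105 for MYB-WT_Rescue), as did the difference between the rescues (log2 change 0.22, limma adjusted p = 0.372 with all libraries, 0.0407 without it and 0.0474 in the fit of 6 libraries). The difference between wild-type rescue and control also passed after quantile normalization (0.00973) and in the fit of 6 libraries (0.00714). CDK4 overlaps the tetraspanin gene TSPAN31 over 2493 bases, and the sources used here do not say whether FPKM were computed by strand, so reads of that stretch may be shared. TSPAN31 itself lay between 7.70 and 13.7 FPKM. CDK6 overlaps CDK6-AS1, at 0.252 to 4.10 FPKM, over 91 bases.

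CDK2, the partner of cyclin E (ENSG00000123374; GRCh38 chr12:55966830-55972789), passed in none of the 6 comparisons and in none of the other settings. D152V_Rescue libraries held 66.1, 68.6 and 65.0 FPKM and MYB-WT_Rescue libraries 62.6, 75.2 and 61.3 FPKM. It was measured at 40.6, 65.6 and 62.0 FPKM in MYB_KnockDown libraries, against 70.6, 67.7 and 65.2 FPKM in siRNA_Control libraries. The 1 low value is that of MYB_KnockDown replicate 1, and without it the log2 change against control was -0.09, against -0.30 with it (limma adjusted p = 0.223, 95% interval -0.66 to 0.06).

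**Figure D2:**
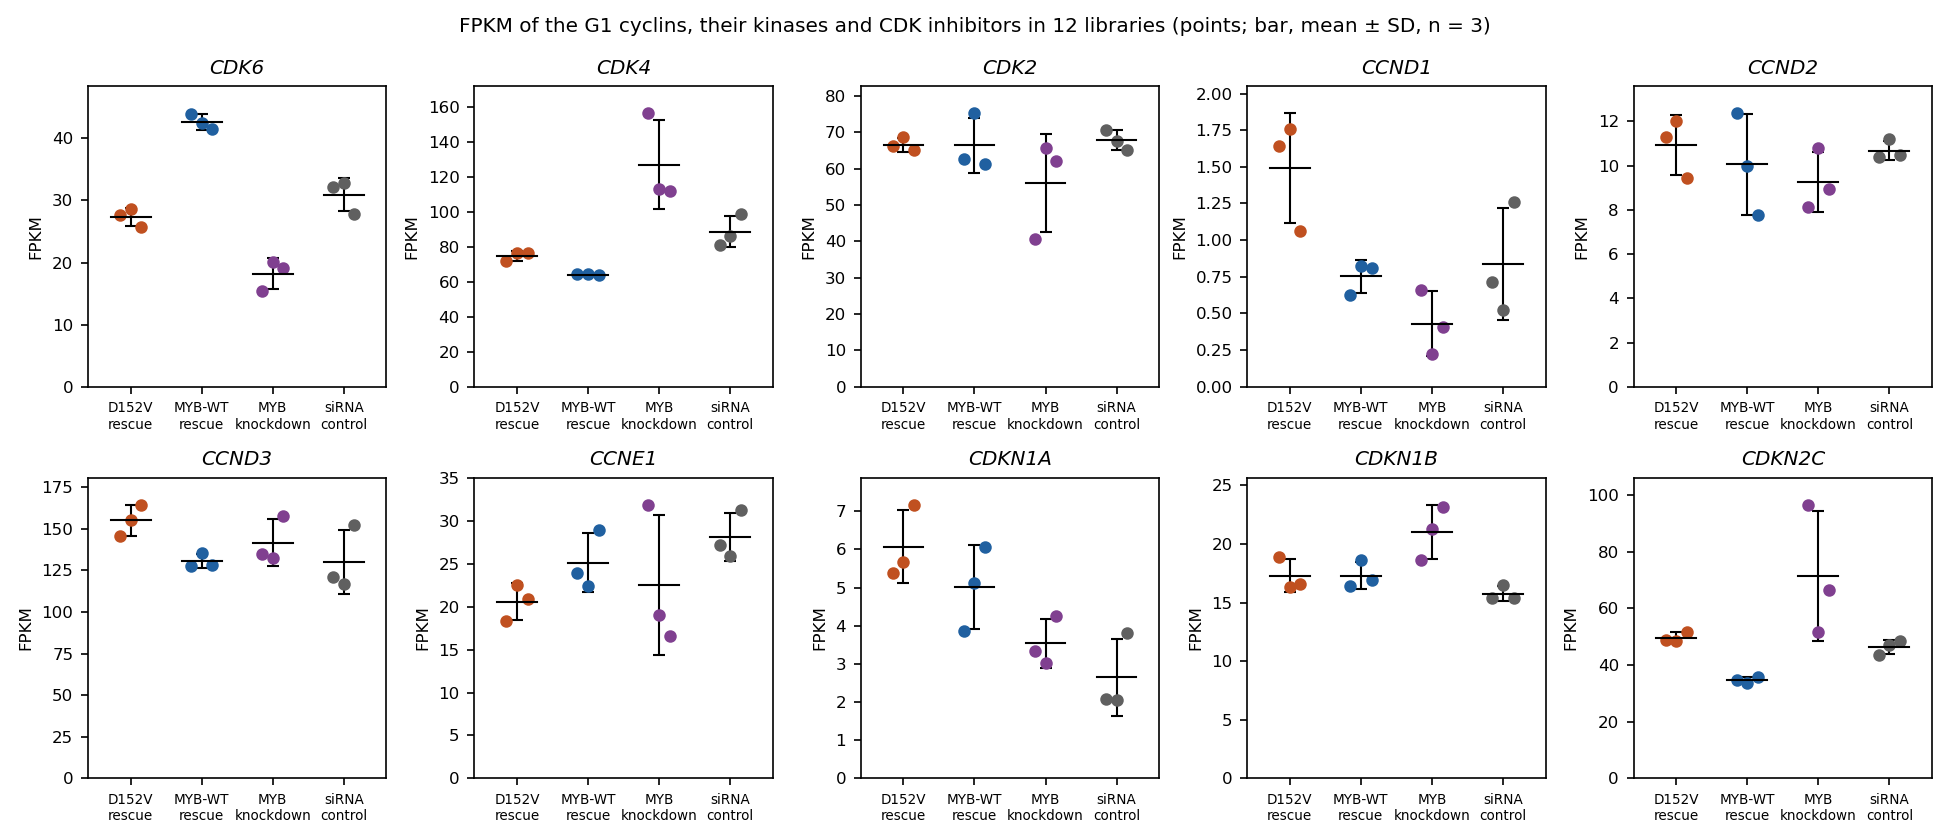
FPKM of the 10 members, 1 panel per gene with its own y axis from 0, in D152V rescue, MYB-WT rescue, MYB knockdown and siRNA control libraries (points; horizontal bars, mean; vertical bars, SD, n = 3). The 3 CDK6 knockdown points, 15.4 to 20.1 FPKM, lie below all others, while the CDK4 knockdown points lie above all others and the CDKN2C knockdown points above every control point.

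Of the cyclins, CCND3 was by far the most abundant per length, and none passed in the comparison of knockdown and control. CCND3 (ENSG00000112576; GRCh38 chr6:41934933-42050035) was measured at 145.7, 155.3 and 164.3 FPKM in D152V_Rescue and 127.7, 135.2 and 128.2 FPKM in MYB-WT_Rescue libraries. MYB_KnockDown libraries held 134.6, 132.2 and 157.8 FPKM, against 121.3, 116.9 and 152.4 FPKM in siRNA_Control libraries. The D152V rescue lay above the wild-type rescue without overlap but did not pass (log2 change 0.25, 95% interval -0.03 to 0.53, limma adjusted p = 0.261, and 0.0432 in the fit of 6 libraries). The knockdown and control overlapped (log2 change 0.13, 95% interval -0.15 to 0.40).

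CCND2, another D-type cyclin (ENSG00000118971; GRCh38 chr12:4273762-4305353), passed nowhere. It averaged 10.9 ± 1.35 FPKM in D152V_Rescue, 10.1 ± 2.29 in MYB-WT_Rescue, 9.28 ± 1.36 in MYB_KnockDown and 10.7 ± 0.426 in siRNA_Control (SD, n = 3 each). Its 12 values ran from 7.79 FPKM in MYB-WT_Rescue replicate 3 to 12.4 FPKM in replicate 1 of the same group, so the spread within that group covered all others. CCND1, the remaining D-type cyclin (ENSG00000110092; GRCh38 chr11:69641156-69654474), was close to the limit of measurement. Its values were 1.64, 1.76 and 1.06 FPKM in D152V_Rescue, 0.623, 0.826 and 0.812 in MYB-WT_Rescue, 0.661, 0.224 and 0.408 in MYB_KnockDown, and 0.716, 0.526 and 1.26 in siRNA_Control libraries. It entered the test through the 3 D152V rescue libraries and 1 control library, which are those at 1 FPKM or more, so its presence among the tested genes depends on the group where it is high. CCND1 rose in the D152V rescue against the knockdown (log2 change 0.80, SE 0.19, limma adjusted p = 0.0126), a call that was lost without D152V_Rescue replicate 2 (0.0533) and in the fit of 6 libraries (0.0707). It did not pass between the rescues (log2 change 0.50, limma adjusted p = 0.119).

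CCNE1, the cyclin that activates CDK2 (ENSG00000105173; GRCh38 chr19:29811991-29824312), was measured at 18.3, 22.6 and 20.9 FPKM in D152V_Rescue and 24.0, 22.4 and 29.0 FPKM in MYB-WT_Rescue libraries. MYB_KnockDown libraries held 31.9, 19.1 and 16.6 FPKM, against 27.2, 25.9 and 31.3 FPKM in siRNA_Control libraries. Replicate 1 of the knockdown lay above every control library and the other knockdown libraries below all of them. With all libraries it did not pass (log2 change -0.36, 95% interval -0.81 to 0.10, limma adjusted p = 0.250), and without MYB_KnockDown replicate 1 it was called lower (log2 change -0.63, adjusted p = 0.00748). Without the same library CCNE1 was called higher in the wild-type rescue than in the knockdown (log2 change 0.47, adjusted p = 0.0129; 0.20 and 0.470 with all libraries). The D152V rescue and the control did not overlap, and the difference passed only without that library or in the fit of 6 libraries (log2 change -0.43, limma adjusted p = 0.253, against 0.0178 and 0.0189).

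CDKN2C, the INK4 inhibitor of CDK4 and CDK6 (ENSG00000123080; GRCh38 chr1:50960745-50974634), was ordered inversely to CDK6. It was measured at 48.7, 48.4 and 51.8 FPKM in D152V_Rescue and 34.7, 33.6 and 35.8 FPKM in MYB-WT_Rescue libraries. MYB_KnockDown libraries held 96.5, 51.6 and 66.3 FPKM, against 43.6, 47.0 and 48.3 FPKM in siRNA_Control libraries. Each wild-type rescue library was below every other library, and each knockdown library was above every control library. The mean of 71.5 ± 22.9 FPKM in the knockdown was 1.54 times that of 46.3 ± 2.41 FPKM in control libraries, but the difference did not pass (log2 change 0.57, SE 0.18, limma adjusted p = 0.0602). It passed without MYB_KnockDown replicate 1 (log2 change 0.33, adjusted p = 0.0360) or replicate 2 (0.78 and 0.0160), after quantile normalization (0.0148) and with median-ratio scaling (0.0488). CDKN2C fell in the wild-type rescue to 34.7 ± 1.09 FPKM, 48.5% of the knockdown level (log2 change -0.98, SE 0.18, limma adjusted p = 0.00216, under 0.05 in all 20 other settings; -0.74 without MYB_KnockDown replicate 1).

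CDKN2C in the D152V rescue averaged 49.6 ± 1.86 FPKM. Against the knockdown it did not pass (log2 change -0.47, limma adjusted p = 0.0730, and -0.23 without MYB_KnockDown replicate 1), though it did without MYB_KnockDown replicate 2 (0.0117) and after quantile normalization (0.0460). D152V rescue libraries lay above wild-type rescue libraries without overlap, 1.43 times their mean (log2 change 0.50, 95% interval 0.11 to 0.90, limma adjusted p = 0.0977). That difference passed without MYB_KnockDown replicate 1 (0.00149) or replicate 2 (0.0332), after quantile normalization (0.00323) and in the fit of 6 libraries (0.00228). The wild-type rescue was likewise below control without overlap (log2 change -0.40, limma adjusted p = 0.197), and passed without MYB_KnockDown replicate 1 (0.00612), after quantile normalization (0.0273) and in the fit of 6 libraries (0.00651).

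CDKN1B, which encodes the CIP/KIP inhibitor p27 (ENSG00000111276; GRCh38 chr12:12717368-12722369), was measured at 18.6, 21.3 and 23.2 FPKM in MYB_KnockDown libraries, against 15.4, 16.5 and 15.4 in siRNA_Control libraries. The 2 groups did not overlap, and the mean was 1.33 times that of the control (log2 change 0.39, SE 0.12, 95% interval 0.14 to 0.64, limma adjusted p = 0.0518). It passed without MYB_KnockDown replicate 1 (log2 change 0.47, adjusted p = 0.00594), with a mean FPKM of at least 5 (0.0358), after quantile normalization (0.0301) and with median-ratio scaling (0.0402). Both rescues averaged 17.3 FPKM, with SDs of 1.41 in D152V_Rescue and 1.16 in MYB-WT_Rescue. Their difference, D152V minus wild-type, was 0.00042 on the log2 scale (95% interval -0.25 to 0.25). Against the knockdown each had a log2 change of -0.27 and passed only without MYB_KnockDown replicate 1 (adjusted p = 0.0156 for D152V_Rescue and 0.0106 for MYB-WT_Rescue, against 0.110 and 0.0904 with all libraries).

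CDKN1A, which encodes the CIP/KIP inhibitor p21 (ENSG00000124762; GRCh38 chr6:36676463-36687332), had another order. Its values were 5.38, 5.67 and 7.17 FPKM in D152V_Rescue and 3.86, 5.13 and 6.06 FPKM in MYB-WT_Rescue libraries. MYB_KnockDown libraries held 3.34, 3.03 and 4.26 FPKM, against 2.07, 2.06 and 3.80 FPKM in siRNA_Control libraries, and overlapped them (log2 change 0.34, 95% interval -0.12 to 0.81, limma adjusted p = 0.276). Both rescue lines were above control without overlap, and the 2 rescues overlapped each other. In the D152V rescue it rose to 2.30 times the control level (log2 change 0.98, SE 0.21, limma adjusted p = 0.0126), a call lost without siRNA_Control replicate 1 (0.0625) or 2 (0.0656) or without D152V_Rescue replicate 3 (0.0617). In the wild-type rescue it rose to 1.90 times the control level (log2 change 0.74, limma adjusted p = 0.0492). Of 19 alternatives 10 ended it: no filter (0.0947), without siRNA_Control replicate 1 or 2 (0.177 each), without MYB_KnockDown replicate 2 or 3 (0.0544 and 0.0505), without MYB-WT_Rescue replicate 2 or 3 (0.145 and 0.164) and without D152V_Rescue replicates 1, 2 or 3 (0.0694, 0.0742 and 0.0581). Against the knockdown CDKN1A rose in the D152V rescue (log2 change 0.64, limma adjusted p = 0.0464), but 13 of 19 alternatives ended the call, among them the pseudocount of 0.1 (0.0541), no filter (0.0990), quantile normalization (0.0505), the fit of 6 libraries (0.102), each D152V_Rescue library left out (0.0777, 0.0945 and 0.145 without replicates 1, 2 and 3), MYB_KnockDown replicate 1 or 2 (0.0615 and 0.0947), siRNA_Control replicate 1 or 2 (0.0583 and 0.0573) and MYB-WT_Rescue replicate 2 or 3 (0.0642 and 0.0517). The wild-type rescue did not pass against the knockdown (log2 change 0.40, limma adjusted p = 0.156).

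**Figure D3:**
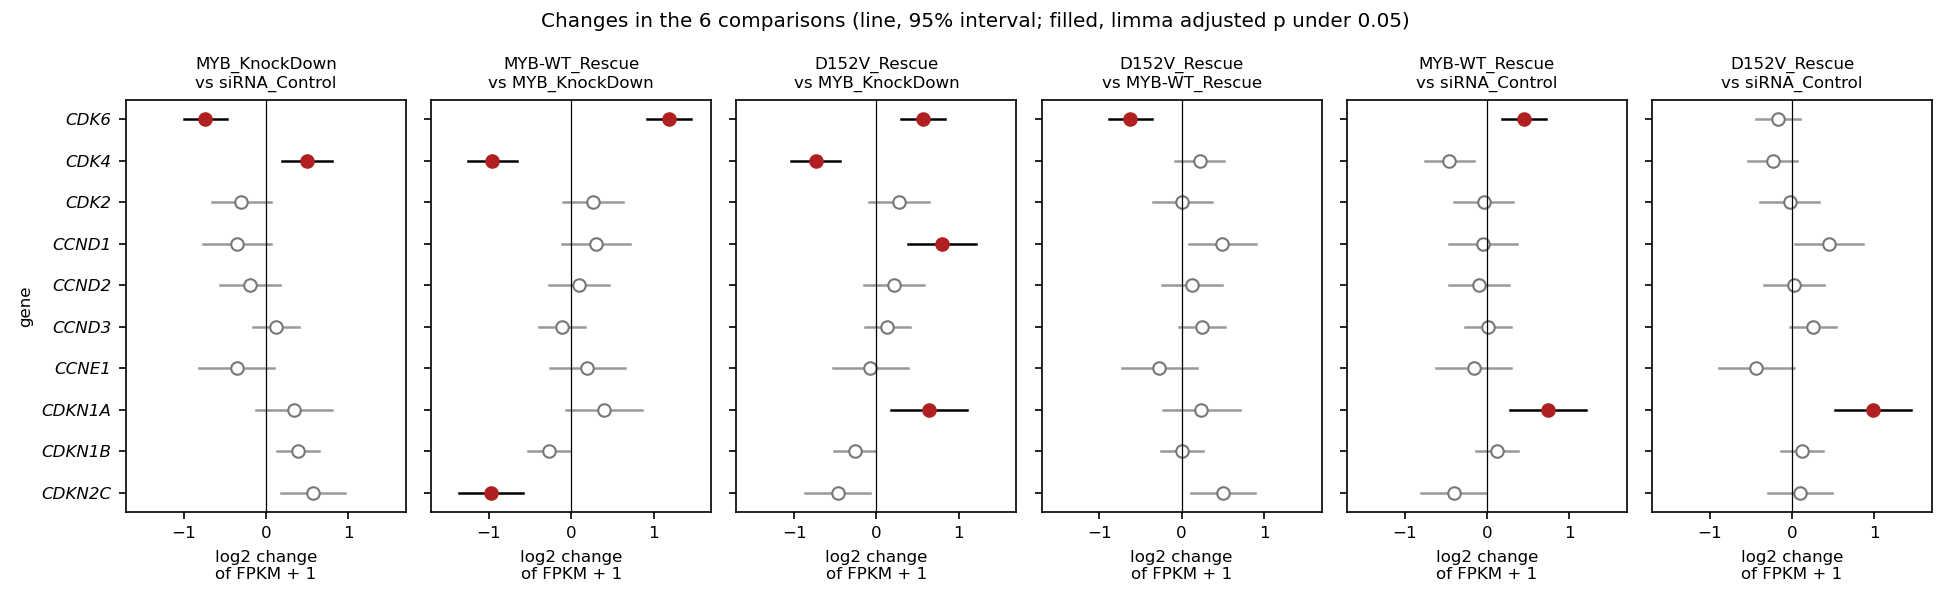
Log2 changes of FPKM + 1 for the 10 members in the 6 comparisons, 1 panel each (circles; lines, 95% intervals; filled red, limma adjusted p under 0.05). CDK6 is the only member called in 5 panels, and its sign is opposite to that of CDK4 in 5 of 6.

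Counted over the members, 2 of 10 passed in the knockdown against control, CDK6 lower and CDK4 higher, where 11.3% of the 13393 tested genes passed (3.94% higher and 7.38% lower). Without MYB_KnockDown replicate 1 the count was 5, where 20.1% of all tested genes passed. In the wild-type rescue against the knockdown 3 of 10 passed, 1 higher and 2 lower, against 37.6% of all tested genes (20.6% higher and 16.9% lower). In the D152V rescue against the knockdown 4 of 10 passed, or 3 of 9 leaving out CCND1, with 3 higher and 1 lower, against 25.1% of all genes (13% higher and 12% lower). Between D152V rescue and wild-type rescue 1 of 10 passed, CDK6 as lower, against 12.1% (5.96% higher and 6.19% lower). The wild-type rescue had 2 of 10 higher against control, where 9.62% of genes passed (5.04% higher and 4.58% lower), and the D152V rescue 1 of 10 higher, where 9.55% passed (4.61% higher and 4.94% lower). With that library left out, calls over all genes rose in the other 5 comparisons too. The members passing were then 5 in the wild-type rescue and 4 in the D152V rescue against the knockdown (45.2% and 32.4% of all genes), 3 between the rescues (31.4%), 4 in the wild-type rescue against control (29.7%) and 3 in the D152V rescue against control (27.7%). With 10 members, shares near the background are no result about the members as a group. The median log2 change of the members was -0.03 in the knockdown against control, as was that of all tested genes. It was 0.14 and 0.03 in the wild-type rescue against the knockdown, and 0.18 and 0.02 in the D152V rescue against the knockdown. Between the rescues it was 0.17 for the members and -0.03 for all genes. Against control it was -0.04 and -0.02 in the wild-type rescue and 0.06 and -0.04 in the D152V rescue. Comparisons that share the knockdown or the control libraries are not independent of each other.

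The make-up of the D-type kinases differed between groups. CDK6 made up 26.7% ± 1.46 of the summed CDK4 and CDK6 FPKM in D152V_Rescue, 39.9% ± 0.655 in MYB-WT_Rescue, 12.9% ± 3.41 in MYB_KnockDown and 26.0% ± 3.43 in siRNA_Control (SD, n = 3 each). The knockdown libraries, at 8.96% to 15.1%, lay below all others and the wild-type rescue libraries, at 39.3% to 40.6%, above all others, while D152V rescue and control overlapped. The sum of both kinases was 145.5 ± 23.0 FPKM in the knockdown, with 172.0 FPKM in replicate 1, against 119.8 ± 6.59 FPKM in control. The ratio of CDKN2C to CDK6 FPKM was 1.69 to 2.01 in D152V_Rescue, 0.788 to 0.863 in MYB-WT_Rescue, 2.57 to 6.27 in MYB_KnockDown and 1.36 to 1.73 in siRNA_Control, and only those of D152V rescue and control overlapped. Among the D-type cyclins CCND3 supplied 90.8% to 94.4% of their summed FPKM and CCND2 5.36% to 8.79%. CCND1 supplied 0.607% to 1.04% in D152V_Rescue, 0.443% to 0.594% in MYB-WT_Rescue, 0.157% to 0.461% in MYB_KnockDown and 0.410% to 0.771% in siRNA_Control, so the D152V rescue libraries lay above every wild-type rescue and knockdown library and overlapped the control. Per length, CCND3 was the highest of the 10 members in 11 of 12 libraries, with CDK4 above it in MYB_KnockDown replicate 1, and CCND1 was the lowest in all 12. These ratios were formed after the levels had been seen and carry no test.

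**Figure D4:**
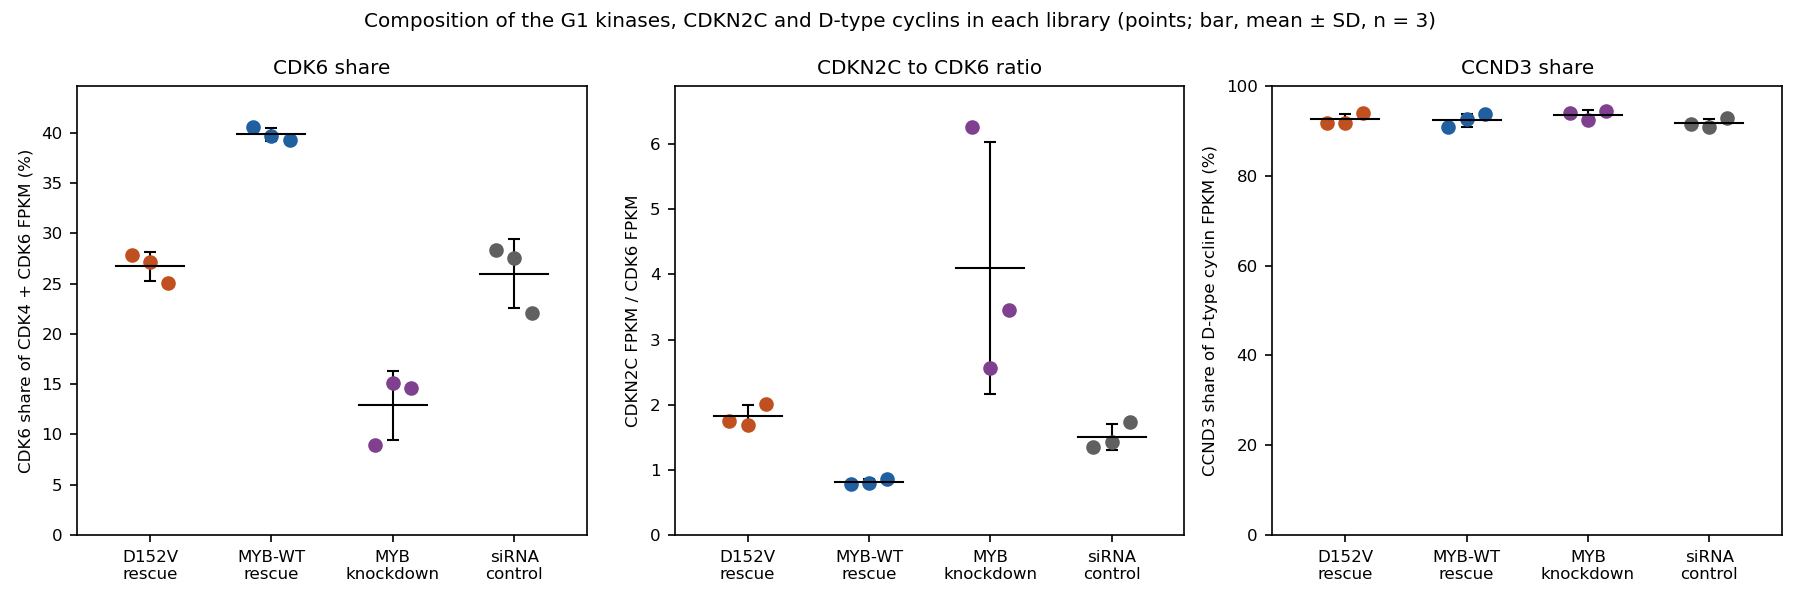
CDK6 as a percentage of CDK4 plus CDK6 FPKM, the ratio of CDKN2C to CDK6 FPKM, and CCND3 as a percentage of the FPKM of 3 D-type cyclins, in each library (points; bars, mean ± SD, n = 3), with D152V rescue at the left and siRNA control at the right of each panel. CDK6 makes up 8.96% to 15.1% in knockdown libraries and 39.3% to 40.6% in wild-type rescue libraries, and the CCND3 share lies between 90.8% and 94.4%.

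The genes around this machinery were taken from lists, and each count gives called genes over those tested. CDKN2A and CDKN2B, INK4 inhibitors, were listed at 0 in all 12 libraries. CDKN2D, another INK4 gene, fell to 1.12 ± 0.303 FPKM in D152V_Rescue and to 1.24 ± 0.0837 FPKM in MYB-WT_Rescue, against 3.03 ± 1.03 FPKM in MYB_KnockDown (log2 changes -0.91 and -0.82, limma adjusted p = 0.00623 and 0.00578). Both calls were lost only in the fits of 6 libraries (0.0752 and 0.0509). CDKN1C, a further CIP/KIP gene, fell to 1.41 ± 0.127 FPKM in D152V_Rescue, against 3.73 ± 1.91 FPKM in MYB_KnockDown (limma adjusted p = 0.0230), a call lost without any 1 D152V rescue library, with no filter and in the fit of 6 libraries, at up to 0.115. Its log2 change was -0.90, and -0.59 without MYB_KnockDown replicate 1. Of the CDK-activating kinase genes CDK7, CCNH and MNAT1, limma called 0 of 3 in each comparison, and at an unadjusted p under 0.05 there was 1 in the knockdown against control, 1 in the wild-type rescue against the knockdown and 0 in the others. The share of all tested genes called ran from 9.55% to 37.6% over the comparisons.

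In the knockdown against control, pocket proteins and E2F factors, through which the G1 kinases act, had a median log2 change of -0.35, against -0.03 for all genes. There 1 of 13 was called lower and 0 higher, against 7.38% and 3.94% of all tested genes. E2F4, a repressor-type E2F, was that gene, at 66.7 ± 4.55 FPKM in the knockdown and 94.5 ± 2.93 FPKM in control libraries (limma adjusted p = 0.0124, lost without siRNA_Control replicate 1 or 2 and in the fit of 6 libraries, at up to 0.167). It was also lower in the D152V rescue than in control (log2 change -0.35, limma adjusted p = 0.0393, lost in 11 of 20 settings at up to 0.245, among them each control, wild-type rescue and D152V rescue library left out). The wild-type rescue had 1 higher and 3 lower against the knockdown, where 20.6% of all tested genes were higher and 16.9% lower. E2F2, an activator E2F, fell to 3.71 ± 0.494 FPKM there, against 8.61 ± 2.36 FPKM in the knockdown (log2 change -1.01, limma adjusted p = 0.00270, under 0.05 in all 20 other settings). E2F1, also an activator, and TFDP2, a partner of E2F proteins, fell and RB1, which encodes the retinoblastoma protein, rose (log2 changes -0.63, -0.57 and 0.96). RB1 was measured at 4.51 FPKM in MYB_KnockDown replicate 1 and at 13.2 and 15.6 FPKM in replicates 2 and 3, and leaving out replicate 1 gave a log2 change of 0.47 for RB1 and -0.37 for TFDP2. The E2F1 call was lost only in the fit of 6 libraries (0.0720). Those of TFDP2 and RB1 were lost without any 1 wild-type rescue library and in other settings, at up to 0.134 and 0.144, and TFDP2 also without MYB_KnockDown replicate 3. E2F2 was higher in D152V_Rescue, at 7.79 ± 1.32 FPKM, than in MYB-WT_Rescue (log2 change 0.90, limma adjusted p = 0.0100, and 0.0529 without D152V_Rescue replicate 2), and lower in MYB-WT_Rescue than in siRNA_Control, at 7.80 ± 1.13 FPKM (log2 change -0.90, limma adjusted p = 0.0132, lost without siRNA_Control replicate 2 or MYB-WT_Rescue replicate 3, at up to 0.0645). The D152V rescue had 0 of 13 called by limma against the knockdown, with 6 at an unadjusted p under 0.05, and 1 higher when MYB_KnockDown replicate 1 was left out.

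Of the 5 DREAM subunits, which repress cell cycle genes together with pocket proteins, 1 was higher and 1 lower in the knockdown against control. Of all tested genes, 3.94% were higher and 7.38% lower there. LIN37 rose to 8.83 ± 2.07 FPKM in the knockdown, against 4.99 ± 0.320 FPKM in control, and LIN9 fell to 18.6 ± 3.61 FPKM, against 26.2 ± 1.79 FPKM in control (limma adjusted p = 0.0310 and 0.0447). Both calls were lost without any 1 control library, LIN37 also without MYB_KnockDown replicate 3 and LIN9 also without any 1 rescue library, at up to 0.181 and 0.221. LIN9 rose in the wild-type rescue to 37.2 ± 2.68 FPKM (limma adjusted p against the knockdown of 5.38e-04, under 0.05 in all 20 other settings) and LIN37 fell to 4.60 ± 0.576 FPKM (0.00555, and 0.0551 in the fit of 6 libraries). In the D152V rescue LIN9 stood at 27.2 ± 0.716 FPKM and LIN37 at 5.08 ± 0.837 FPKM (limma adjusted p against the knockdown of 0.0180 and 0.0186), calls lost in the fit of 6 libraries and without D152V_Rescue replicate 2, and for LIN9 without replicate 3, at up to 0.126 and 0.123. LIN9 was also higher in the wild-type rescue than in control (log2 change 0.49, limma adjusted p = 0.0471), a call lost in 13 of 20 settings at up to 0.169, among them each library of siRNA_Control, MYB-WT_Rescue and D152V_Rescue left out.

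Genes switched on by E2F at the start of S phase had 1 higher and 0 lower of 15 in the knockdown against control, 1 and 5 in the wild-type rescue against the knockdown, and 1 and 4 in the D152V rescue against the knockdown. Between the rescues 1 was higher and 1 lower, and against control 2 were lower in the wild-type rescue and 1 in the D152V rescue. Without MYB_KnockDown replicate 1 the last 2 counts were 10 and 4, and 4 were higher in D152V_Rescue than in MYB-WT_Rescue. Over all tested genes the shares in these 3 directions were then 15.9%, 16.4% and 13.6%, against 4.58%, 4.94% and 5.96% with all libraries. TK1, the S phase thymidine kinase, was measured at 50.05 ± 2.64 FPKM in D152V_Rescue, 27.7 ± 1.40 FPKM in MYB-WT_Rescue, 89.5 ± 24.9 FPKM in MYB_KnockDown and 56.6 ± 3.83 FPKM in siRNA_Control (SD, n = 3 each). It fell in the MYB-WT_Rescue group against the knockdown (log2 change -1.63, limma adjusted p = 7.15e-05) and against control (-1.01, limma adjusted p = 0.00283), and was higher in D152V_Rescue than in MYB-WT_Rescue (0.83, limma adjusted p = 0.00578). These 3 calls held in all 20 other settings. It fell in the D152V rescue against the knockdown (log2 change -0.79, limma adjusted p = 0.00669, and 0.0846 in the fit of 6 libraries). Its rise in the knockdown was less steady (log2 change 0.62, limma adjusted p = 0.0348), lost in 10 of 20 settings at up to 0.204, among them each control library, each D152V rescue library and MYB-WT_Rescue replicates 1 and 2 left out, and its log2 change was 0.40 without MYB_KnockDown replicate 1.

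CDC6, which loads the replicative helicase, stood at 33.3 ± 3.39 FPKM in D152V_Rescue, against 50.5 ± 2.13 FPKM in siRNA_Control (log2 change -0.59, limma adjusted p = 0.00844, under 0.05 in all 20 other settings). It was also lower there than in MYB_KnockDown, at 48.0 ± 6.01 FPKM (limma adjusted p = 0.0117, and 0.113 in the fit of 6 libraries), and than in MYB-WT_Rescue, at 46.1 ± 1.85 FPKM (log2 change -0.46, limma adjusted p = 0.0249, lost in 6 settings at up to 0.108, among them each wild-type rescue library and D152V_Rescue replicates 1 and 3 left out). MCM5 and MCM7, subunits of that helicase, and CDT1, another loading factor, fell in the wild-type rescue against the knockdown (log2 changes -0.65, -0.79 and -0.57, limma adjusted p = 0.00249, 0.00313 and 0.00806). MCM5 held in all 20 other settings, and MCM7 and CDT1 were lost only in the fit of 6 libraries (0.0529 and 0.0747). MCM7 and MCM3, a further subunit, fell in the D152V rescue against the knockdown (log2 changes -0.62 and -0.40, limma adjusted p = 0.0164 and 0.0322), calls lost in 4 and 6 settings at up to 0.131 and 0.281, MCM7 without D152V_Rescue replicate 1 or 3 and MCM3 without any 1 D152V rescue library or MYB_KnockDown replicate 2. MCM3 was lower in the wild-type rescue than in control (log2 change -0.43, limma adjusted p = 0.0394), which was lost without any 1 library of siRNA_Control, MYB-WT_Rescue or D152V_Rescue and after quantile normalization, at up to 0.165.

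Later cyclins, their kinases and phosphatases had 0 of 12 called by limma in the knockdown against control, in the D152V rescue against the knockdown and in the D152V rescue against control, with 0 at an unadjusted p under 0.05 in each. With all libraries 11.3%, 25.1% and 9.55% of all tested genes were called in these comparisons, in that order. Leaving out MYB_KnockDown replicate 1 gave 0, 2 and 0 called, both of the 2 lower, where 15.9% of all genes were lower. In the wild-type rescue against the knockdown 1 was higher and 3 lower, where 20.6% of all tested genes were higher and 16.9% lower. CCNB2, a mitotic cyclin, fell to 44.0 ± 6.31 FPKM there, against 96.6 ± 29.7 FPKM in the knockdown (log2 change -1.08, limma adjusted p = 0.00366, under 0.05 in all 20 other settings). CDC25B, a phosphatase that activates CDKs, and CCNE2, the other E-type cyclin, fell, and WEE1, a kinase that restrains CDK1, rose (log2 changes -0.51, -0.47 and 0.53). CDC25B and WEE1 were lost only in the fit of 6 libraries (0.0668 and 0.0716), and CCNE2 in 7 settings at up to 0.131, among them each wild-type rescue library and MYB_KnockDown replicates 2 and 3 left out. CCNB2 was higher in D152V_Rescue, at 78.2 ± 14.2 FPKM, than in MYB-WT_Rescue (log2 change 0.81, limma adjusted p = 0.0329), lost in 7 settings at up to 0.132, among them each D152V rescue library, MYB-WT_Rescue replicates 1 and 2 and siRNA_Control replicate 1 left out. Against control the wild-type rescue had 2 lower, where 4.58% of all tested genes were lower. It had 2 higher and 4 lower when MYB_KnockDown replicate 1 was left out, where 13.8% of all genes were higher and 15.9% lower. CDC25B (log2 change -0.42, limma adjusted p = 0.0278) was lost without any 1 control library and without MYB-WT_Rescue replicate 1 or 2, at up to 0.102. CCNB2 (-0.76, limma adjusted p = 0.0496) was lost in 14 settings, among them each library of siRNA_Control, MYB-WT_Rescue and D152V_Rescue left out, at up to 0.180.

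Ubiquitin ligase genes that act on G1 cyclins and CDK inhibitors had 1 higher and 1 lower of 9 in the knockdown against control. Against the knockdown, 2 were higher and 2 lower in the wild-type rescue, and 1 was higher and 1 lower in the D152V rescue. Over all tested genes 11.3%, 37.6% and 25.1% were called in these comparisons, in that order. With 9 genes, these counts are no result about the list as a group. SKP2, which targets p27 for destruction, was measured at 27.4 ± 3.02 FPKM in D152V_Rescue, 50.7 ± 4.09 FPKM in MYB-WT_Rescue, 28.7 ± 7.41 FPKM in MYB_KnockDown and 50.6 ± 3.69 FPKM in siRNA_Control (SD, n = 3 each). It was lower in the D152V than in the wild-type rescue (log2 change -0.87, limma adjusted p = 0.00687) and than in control (-0.86, limma adjusted p = 0.00861), both in all 20 other settings. SKP2 fell in the knockdown against control (log2 change -0.82, limma adjusted p = 0.0179, lost without siRNA_Control replicate 1 or 2 and in the fit of 6 libraries, at up to 0.167) and rose in MYB-WT_Rescue against the knockdown (0.83, limma adjusted p = 0.00434, and 0.0516 in the fit of 6 libraries). FBXW7, which targets cyclin E, stood at 10.5 ± 1.24 FPKM in D152V_Rescue and 13.2 ± 0.741 FPKM in MYB-WT_Rescue, against 7.53 ± 0.727 FPKM in MYB_KnockDown. The wild-type rescue call (limma adjusted p = 0.00199) held in all 20 other settings, and that of the D152V rescue (0.0361) was lost in 9 at up to 0.155, among them each rescue library and siRNA_Control replicate 2 left out. SKP1, the adaptor that holds SKP2 and FBXW7, averaged 627 ± 46.8 FPKM in the knockdown and 433 ± 29.1 FPKM in control (limma adjusted p = 0.0208), and fell in both rescues against the knockdown (log2 changes -0.41 in D152V_Rescue and -0.53 in MYB-WT_Rescue, limma adjusted p = 0.0269 and 0.00533). All 3 SKP1 calls were lost after quantile normalization (0.723 in the knockdown against control, 0.630 in the D152V rescue and 0.948 in the wild-type rescue) and in the fits of 6 libraries, the first also without any 1 control library and the second without any 1 D152V rescue library. RBX1, the ring subunit of these ligases, fell in the wild-type rescue (log2 change -1.05, limma adjusted p = 0.0148, lost without MYB-WT_Rescue replicate 1 and in the fit of 6 libraries, at up to 0.0958). RBX1 was at 104.6 FPKM in MYB_KnockDown replicate 1 and at 42.5 and 40.3 FPKM in replicates 2 and 3, and its log2 change without replicate 1 was -0.61.

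Of 9 tested p53 response genes, listed because CDKN1A is one, 1 was lower in the knockdown against control. Against the knockdown, 2 were higher in the wild-type rescue, and 2 were higher and 1 lower in the D152V rescue. In these comparisons 11.3%, 37.6% and 25.1% of all tested genes were called, in that order. In the D152V rescue against control 2 were higher, where 4.61% of all tested genes were higher. The other tested genes of this list were not called there. With 9 genes, these counts are no result about the list as a group. BTG2, an antiproliferative gene, was measured at 19.9 ± 1.05 FPKM in D152V_Rescue, against 8.26 ± 0.959 FPKM in MYB-WT_Rescue (log2 change 1.18, limma adjusted p = 1.84e-04), 10.7 ± 1.65 FPKM in MYB_KnockDown (0.84, limma adjusted p = 0.00225) and 10.0 ± 0.831 FPKM in siRNA_Control (0.93, limma adjusted p = 0.00144). All 3 calls held in all 20 other settings. FDXR, a mitochondrial reductase, was also higher in the D152V rescue than in control (log2 change 0.63, limma adjusted p = 0.0384), lost in 11 settings at up to 0.163, among them each library of siRNA_Control, MYB-WT_Rescue and D152V_Rescue left out. RRM2B, a ribonucleotide reductase subunit, was the gene called lower in the knockdown (log2 change -0.46, limma adjusted p = 0.0464), lost in 13 settings at up to 0.214, among them each library of siRNA_Control, MYB-WT_Rescue and D152V_Rescue and MYB_KnockDown replicate 2 left out. It rose against the knockdown in both rescues (log2 changes 0.60 in D152V_Rescue and 0.66 in MYB-WT_Rescue), as did ZMAT3, an RNA-binding protein gene, in the wild-type rescue (0.59), and these calls were lost only in the fits of 6 libraries (0.102, 0.0541 and 0.0703). TP53I3, an oxidoreductase gene, fell in the D152V rescue against the knockdown (log2 change -0.58, limma adjusted p = 0.0300, lost in 6 settings at up to 0.122, among them MYB_KnockDown replicate 1 and each D152V rescue library left out).

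As a description over the 12 libraries, which share 4 group means, the genes whose log2(FPKM + 1) correlated most with a member were found among those with a mean of at least 5 FPKM. For CDK6 they were UTP25, VPS37B and TRAM1, at r of 0.989, 0.981 and 0.981. For CDK4 they were UQCC2, COA1 and SNRPB, at r of 0.982, 0.980 and 0.980, and for CDKN2C they were GTF3C2-AS2, ATP6V1F and SNCG, at 0.981, 0.980 and 0.978. TXNIP stood first for CDKN1A at r of 0.968, followed by KIFAP3 and HECW2-AS1 at 0.959 and 0.928. CCND1, at its low level, had no gene above 0.847, where FANCB, TXNDC2 and RFESD stood first.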

How the data were processed

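Poly(A) RNA of 12 K-562 libraries was sequenced as 125-bp stranded read pairs, per the labels' protocols. The deposited table holds FPKM per gene, and the submitters' processing notes name bcl2fastq 2.17.1.14, Trimmomatic 0.33, TopHat2 2.0.13, Cufflinks 2.2.1 and GRCh38. Ratios of low values held no whole-read steps (a median of 2.80% of ratios lay within 2% of their pair's median), so read depth is unknown and no counting intervals are given.

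The members and lists were chosen with earlier results of these data known. All 10 members are named, with MYB, and up to 4 called genes per list and comparison, lowest adjusted p first. Genes with at least 1 FPKM in at least 3 libraries (13393) were fitted on log2(FPKM + 1), which understates changes of low genes, with limma 3.58.1 in R 4.3.3 (group means, trended empirical Bayes, Benjamini-Hochberg adjustment over all 13393, threshold 0.05), after the procedure had been tested on simulated data. All 12 libraries share 1 estimate of spread. The 20 alternatives are 12 fits that each leave out 1 library and 8 other settings.

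The labels describe 3 individual experiments. Same-numbered D152V_Rescue and MYB-WT_Rescue libraries deviated together in all 3 pairs (r of 0.153 to 0.233), so the numbers were taken to pair these groups, from the data. The main fit does not use this pairing, and a fit with a block for the replicate number is among the alternatives. Coordinates and promoter sequences are from RefSeq on GRCh38. Python 3.11.15 with pandas 2.3.3 and matplotlib 3.10.9 was used for the rest. Another T and B cell marker is not reported here and is left out of that list's sum.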

Additional observations from a re-analysis of the deposited data

Results flagged for a closer look

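The following genes differed between the D152V rescue and the wild-type rescue by the test of that difference, each given as the log2 change of D152V_Rescue minus MYB-WT_Rescue. CDK6 differed by -0.62, SKP2 by -0.87, TK1 by 0.83 and BTG2 by 1.18, and these 4 calls held in all 20 other settings. E2F2 differed by 0.90, a call lost in 1 setting, and CDC6 by -0.46 and CCNB2 by 0.81, lost in 6 and 7. MYB itself differed by -0.44, and its call was lost in 18 of 20 settings. The rescues are separate stable lines, so the MYB variant and the line cannot be told apart.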

How the results depend on the processing

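Over 1308 single values of the members and MYB, 1205 kept their side of the threshold, 70 lost a call, 33 gained one and 0 changed sign while called. In the knockdown against control, where 2 members and 1516 genes were called, the members called were 1 with no filter, 4 after quantile normalization, 4 with median-ratio scaling and 0 in the fit of 6 libraries by limma (4 at an unadjusted p under 0.05), and the genes called were 738 with no filter and 16 in the fit of 6 libraries. In the wild-type rescue against the knockdown, 1689 genes in place of 5031 were called in the fit of 6 libraries. In the D152V rescue against the knockdown, with 4 members and 3355 genes, the members were 2 at a mean of at least 5 FPKM and 0 in the fit of 6 libraries by limma (4 unadjusted), with 548 genes. Between the rescues, with 1 member and 1627 genes, the members were 2 after quantile normalization and 4 in the fit of 6 libraries, and the genes 869 at a mean of at least 5 FPKM and 3275. In the wild-type rescue against control, with 2 members and 1289 genes, the members were 1 with no filter, 1 at a mean of at least 5 FPKM, 4 after quantile normalization and 4 in the fit of 6 libraries, and the genes 710 at a mean of at least 5 FPKM and 3512. In the D152V rescue against control, with 1 member and 1279 genes, the members were 0 by limma at a mean of at least 5 FPKM (0 unadjusted), which leaves out CDKN1A, and 2 in the fit of 6 libraries, and the genes 699 and 3575.

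With 1 library left out in turn, members called ran from 1 to 5 and genes from 173 to 2697 in the knockdown against control, 3 to 5 and 3194 to 6055 in the wild-type rescue against the knockdown, and 2 to 4 and 1639 to 4389 in the D152V rescue against the knockdown. They ran from 1 to 3 and 1020 to 4209 between the rescues, 0 to 4 and 682 to 3973 in the wild-type rescue against control, and 0 to 3 and 725 to 3706 in the D152V rescue against control. The causes were not tested.

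With a replicate block, members called were 1, 4, 4, 1, 2 and 1 and genes 1712, 5340, 3672, 1871, 1498 and 1499, in the order of comparisons above. Between the rescues, whose numbers were taken to pair the samples, the block changed no call of a member but ended that of MYB (adjusted p = 0.0640). Over all groups, 9 of 18 same-numbered pairs had r over 0.1, against 3 of 36 pairs with different numbers. In the other comparisons not every same-numbered pair's r was over 0.1, and whether the numbers pair those libraries was not settled. There the block ended the CDK4 call between knockdown and control (0.0521) and called CDKN1A between wild-type rescue and knockdown (0.0385). Knockdown and control libraries each correlated best with their own number (r of 0.0376 to 0.132). The leave-outs of libraries from groups not compared, and the list counts and list gene values without MYB_KnockDown replicate 1, were chosen after seeing the data. With 3 libraries a group and unknown depth, low genes such as CCND1 are the least certain.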
